A study of Mus musculus with 8 samples.

Results

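Gdf15 and 9 genes of the integrated stress response were followed in 8 RNA sequencing libraries of cultured mouse forelimb buds. The 10 genes were taken by name from the 21692 genes of the deposited table. They are Gdf15, Nupr1, Atf4, Atf3, Atf5, Ddit3, Trib3, Chac1, Sesn2 and Asns, and all 10 passed the filter on low counts. They were selected on their measured differences between the treated and the vehicle libraries, that is, on the log2 fold changes and levels given below. Their differences between these groups are therefore given as a description with no p-value. Counts of calls among them appear once, beside the share over all genes. All 8 libraries are of CD1 mice, gestation day (GD) 13, with the limb buds kept in culture for 24 h. The 4 vehicle libraries, vehicle 1 to 4, received dimethyl sulfoxide (DMSO). The 4 OPE libraries, OPE 1 to 4, received a house dust-based mixture of organophosphate esters, which are flame retardants and plasticisers, at a dilution of 1 in 300000. The labels do not tie the libraries to litters or cultures. Every p-value below thus rests on the spread among these 8 libraries alone, and that spread may be technical.

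The integrated stress response starts when kinases phosphorylate the translation factor eIF2, which slows protein synthesis in general and favours translation of the mRNA of ATF4. The transcription factor ATF4 then switches on genes of amino acid supply, and under prolonged stress its partners, among them CHOP (the product of Ddit3), add genes linked to cell death. ATF4 is also needed by bone-forming cells, and GDF15 is a secreted cytokine of the TGF-beta superfamily that stressed cells of many tissues release. ATF4 binds, as a dimer with C/EBP proteins, a composite site known as the C/EBP-ATF response element.

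Every one of the 10 genes had a higher mean in the OPE libraries than in the vehicle libraries. Gdf15 had the highest log2 fold change of all 15517 genes tested, 2.95 ± 0.34 (SE). Among the other members the stress targets Trib3 and Chac1 had the highest values, 2.05 ± 0.43 and 1.90 ± 0.39, and the factor Atf4 itself gave 0.70 ± 0.15. In 8 of the 10 genes all 4 OPE values lay above all 4 vehicle values, which was so for 4.05% of the genes tested; Atf3 and Ddit3 were the exceptions. The library OPE 1 held the highest value of all 8 libraries for each of the 10 genes, as it did for 16.6% of the genes tested. Without OPE 1 all 10 log2 fold changes stayed above 0, and their median was 0.81 in place of 1.16. The median over all genes tested was 0.01 with all libraries and 0.00 without OPE 1.

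The sequences of 5 promoters show the site through which ATF4 is known to act. RefSeq promoter windows of GRCm38.p6, the build of the files (mm10), run from 250 bases before to 50 bases after a gene's start, and all 10 genes had at least 1 window. The core of the C/EBP-ATF response element was searched as TGATGNAA, or TTNCATCA on the other strand, and was found for Atf3, Chac1, Trib3, Asns and Nupr1. These letters occurred in a window of 4.51% of all 27025 genes. Capitals mark the match, and each sequence is written 5′ to 3′ on the gene's strand with up to 30 bases on either side of the match. Asns is cut at its start site, and Trib3 at the end of the match. Starts here are those of RefSeq, which differ from those of the counted genes. On the counted coordinates the matches of Nupr1 and Asns lie inside the gene, as these genes start at 126630861 and 7693254. That of Trib3 lies before its counted start at 152344032.
Atf3, chr1:191183406-191183473, minus strand, match 110 bases before the start: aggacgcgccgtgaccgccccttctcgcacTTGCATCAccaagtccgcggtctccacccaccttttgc
Chac1, chr2:119351019-119351086, plus strand, match 193 bases before the start: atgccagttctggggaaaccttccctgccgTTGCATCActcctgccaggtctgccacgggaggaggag
Nupr1, chr7:126625543-126625610, minus strand, match 110 bases before the start: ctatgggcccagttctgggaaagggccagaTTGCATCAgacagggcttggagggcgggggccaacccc
Asns, chr6:7693210-7693262, minus strand, match 23 bases before the start: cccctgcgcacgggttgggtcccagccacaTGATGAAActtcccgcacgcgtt
Trib3, chr2:152344039-152344076, minus strand, match 14 bases after the start: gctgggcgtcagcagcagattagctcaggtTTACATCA

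Atf3, Chac1 and Nupr1 share the stricter form TGATGCAA (TTGCATCA on the other strand), which a window of 1.03% of all genes held; every match of the stricter form is also a match of the core. Asns carries TGATGAAA, the letters of its amino acid response element, and Trib3 carries TTACATCA. The windows of Gdf15, Atf4, Atf5, Ddit3 and Sesn2 held no match to the core, which says only that these letters are not in these windows. The short site of ATF and CREB factors, TGACG, stood in windows of Asns, Atf3, Atf4, Chac1 and Trib3 and of 23.05% of all genes, and its full form TGACGTCA in none of the 10 and in 2.03% of all genes. The endoplasmic reticulum stress element ERSE was in none of the 10 and in 0.137% of all genes. The core of the antioxidant response element, TGACNNNGC, was in windows of Asns and Sesn2 and of 14.0% of all genes. A match is a string of letters and does not show that a factor bound there.

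**Figure D1:**
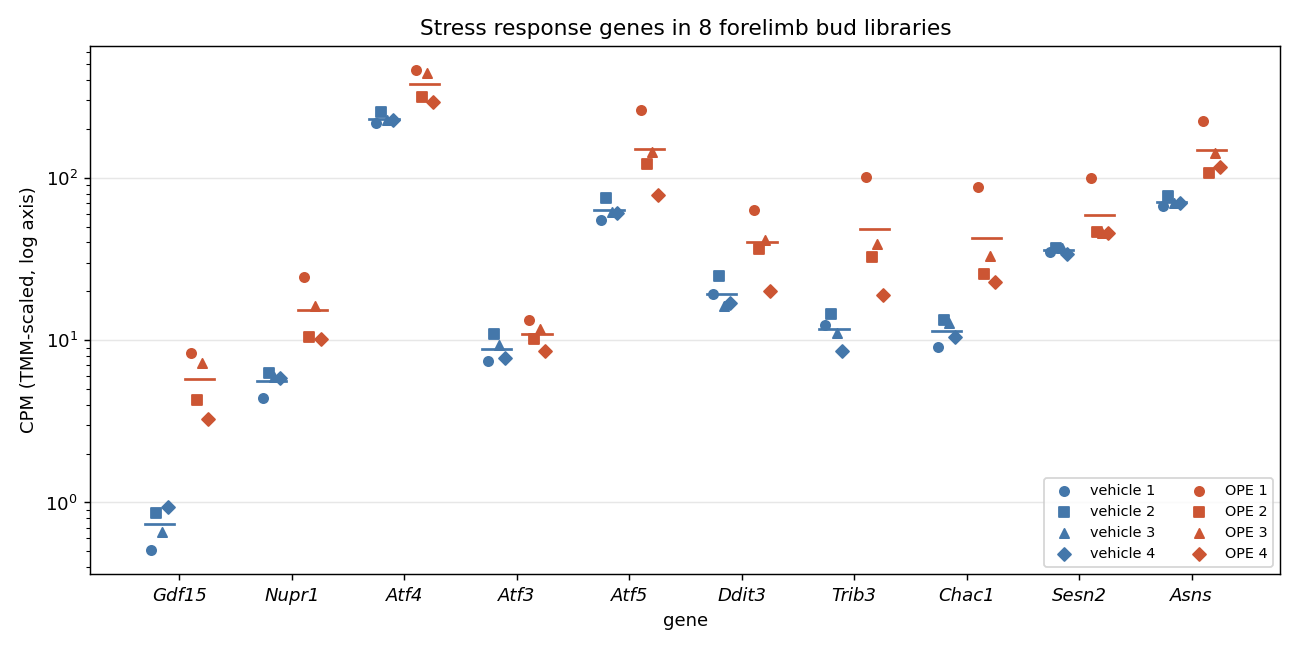
CPM (read counts relative to the TMM-adjusted library total, log axis, not scaled to gene length) of the 10 genes, 1 point per library, blue for vehicle and red for OPE, with a bar at each group mean. In 8 genes the groups do not overlap, and OPE 1 (red circle) is the highest point of every gene.

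Gdf15 was nearly silent in vehicle buds. Vehicle 1 to 4 had 0.508, 0.867, 0.656 and 0.932 CPM, which rest on 9, 17, 14 and 21 reads. OPE 1 to 4 had 8.35, 4.30, 7.21 and 3.26 CPM, from 181, 65, 104 and 49 reads. Each OPE library was above each vehicle library, and the lowest OPE library was still 4.41 times the vehicle mean. Vehicle 4 and OPE 4 were the closest libraries of the 2 groups by CPM. Exact 95% Poisson intervals, which cover counting error only, ran from 13 to 32.1 reads in vehicle 4 and from 36.2 to 64.8 reads in OPE 4. These libraries had 22006738 and 14986793 counted reads, so the intervals are not on the same scale. They are no test of the groups, since Gdf15 was chosen on this difference. The ratio of the group means was 7.81, and 6.65 without OPE 1. Gdf15 lies on chromosome 8 (70629393 to 70632456, minus strand, mm10), and no other counted gene overlaps it.

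Among the transcription factors, Atf4 was by far the most abundant mRNA. It had 218, 255, 228 and 227 CPM in vehicle 1 to 4 and 463, 314, 441 and 293 CPM in OPE 1 to 4. The groups did not overlap, and the ratio of their means was 1.63. OPE 1 and OPE 3 stood close together at the top, so that Atf4 depended less on OPE 1 than most other members, with a ratio of 1.51 without it.

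Atf5, a relative of ATF4 that responds to amino acid and mitochondrial stress, had 55.3, 75.2, 61.3 and 60.5 CPM with vehicle. In OPE 1 to 4 it had 262, 122, 144 and 78.9 CPM. All OPE values were above the vehicle range, although OPE 4 exceeded the highest vehicle library only slightly. The log2 fold change was 1.27 ± 0.29, and 0.86 ± 0.18 without OPE 1. Atf5 (chromosome 7, 44812257 to 44816658) overlaps the opposite-strand genes Nup62 and Il4i1. No label or header gives the strand setting of the counting, so the value of Atf5 is uncertain to that extent.

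Ddit3, which encodes CHOP, a factor of the late stress response, had 19.3, 24.98, 16.2 and 17.0 CPM in vehicle 1 to 4. The OPE libraries gave 63.1, 36.5, 41.3 and 20.05 CPM. OPE 4 lay inside the vehicle range and the other 3 OPE libraries above it. Its log2 fold change was 1.06 ± 0.28, and 0.74 ± 0.23 without OPE 1. The gene (chromosome 10, 127290774 to 127296288) shares 68 exon bases with the opposite-strand gene Mars, which held 360% of the reads of Ddit3, and these bases are 3.97% of its exons.

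Atf3, an early stress factor that also answers to growth factors and DNA damage, differed least. It had 7.39, 10.9, 9.32 and 7.72 CPM with vehicle and 13.2, 10.2, 11.7 and 8.59 CPM with OPE. The ranges overlapped, with OPE 2 and OPE 4 both inside the vehicle range. The log2 fold change of Atf3 was 0.31 ± 0.18, and 0.19 ± 0.18 without OPE 1, about as large as its own error. The means, 8.82 and 10.9 CPM, differed by little more than the SD of 1.60 CPM within the vehicle group.

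Nupr1 encodes a small stress-induced chromatin protein that lies downstream of ATF4. Vehicle 1 to 4 had 4.40, 6.32, 5.95 and 5.81 CPM, and OPE 1 to 4 had 24.4, 10.5, 16.2 and 10.2 CPM. No OPE value came near the vehicle range, and the ratio of means was 2.72, or 2.18 without OPE 1. The gene lies on chromosome 7 (126623249 to 126630861), and no counted gene overlaps it.

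Of the 4 remaining targets, Trib3 and Chac1 varied most. Trib3 encodes a pseudokinase that feeds back on ATF4 and CHOP. It had 12.4, 14.5, 11.1 and 8.61 CPM with vehicle and 102, 32.4, 39.3 and 19.1 CPM with OPE. Every OPE library was above every vehicle library, and OPE 1 was 3.36 times the mean of the other 3. Without OPE 1 the log2 fold change of Trib3 was 1.37 ± 0.24 in place of 2.05 ± 0.43.

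Chac1 encodes an enzyme that breaks down glutathione. It gave 9.09, 13.4, 12.8 and 10.5 CPM in vehicle 1 to 4 and 88.2, 25.7, 33.2 and 22.7 CPM in OPE 1 to 4. The groups stood well apart, and OPE 1 was 3.24 times the mean of OPE 2 to 4. Its log2 fold change went from 1.90 ± 0.39 to 1.24 ± 0.17 when OPE 1 was left out. The coefficient of variation of Chac1 within the OPE group was 72.5%, and that of Trib3 76.2%, against 17.6% and 21.2% within the vehicle group.

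Asns encodes asparagine synthetase, a classic gene of the amino acid response. Its vehicle values were 66.8, 77.9, 70.3 and 69.9 CPM, and its OPE values 225, 107, 142 and 117 CPM. The vehicle libraries were tightly grouped, with a coefficient of variation of 6.62%, and all OPE libraries were above them. Without OPE 1 the log2 fold change of Asns was 0.77 ± 0.11, against 1.05 ± 0.20 with it.

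Sesn2 encodes sestrin 2, a leucine sensor that restrains the growth kinase complex mTORC1. It had 35.2, 37.1, 37.0 and 33.8 CPM with vehicle and 99.3, 46.7, 45.8 and 45.9 CPM with OPE. OPE 2, 3 and 4 were almost equal and sat just above the vehicle range, while OPE 1 was 2.15 times their mean. The log2 fold change of Sesn2 was 0.74 ± 0.23, and 0.36 ± 0.09 without OPE 1.

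**Figure D2:**
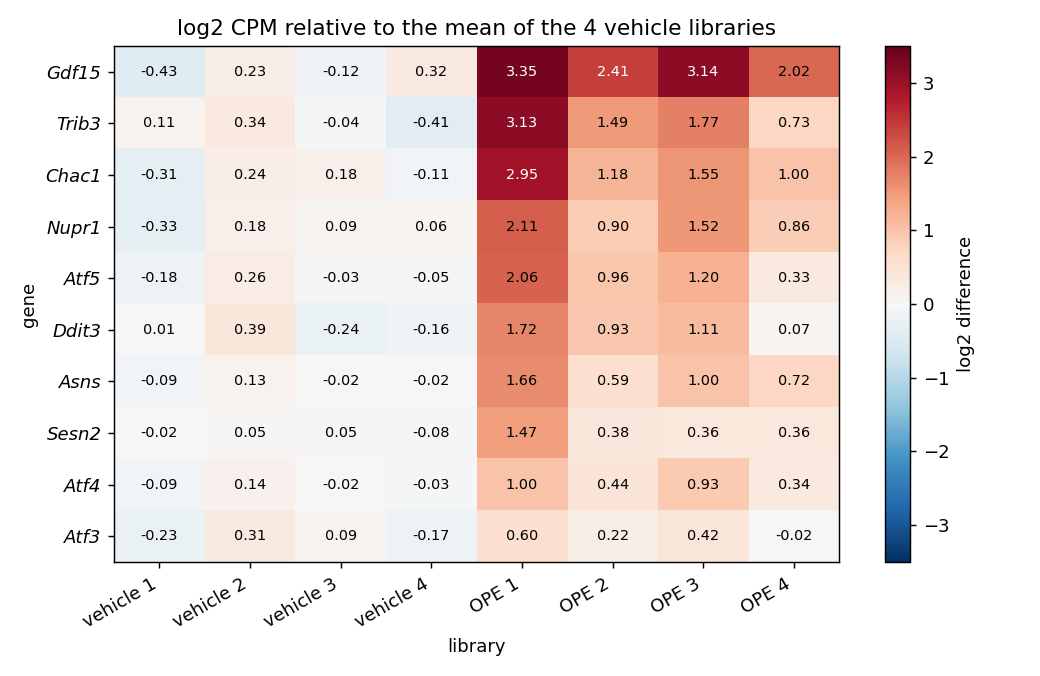
Log2 CPM of the 10 genes in each library relative to the mean of the 4 vehicle libraries, as a heat map with genes ordered by log2 fold change and the log2 difference printed in each cell. OPE 1 is the deepest red column with Gdf15 at 3.35, and only Atf3 in OPE 4, at -0.02, is not above 0 among the OPE cells.

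The OPE libraries ranked alike in most members. In 8 of the 10 genes the order was OPE 1, OPE 3, OPE 2 and OPE 4 from high to low. Sesn2 and Asns were the exceptions, and both still had OPE 1 first. The median of the 10 genes, as log2 CPM relative to the vehicle mean, was 1.89 in OPE 1, 1.16 in OPE 3, 0.91 in OPE 2 and 0.54 in OPE 4. In the vehicle libraries it lay between -0.14 and 0.24. Vehicle 1 was the lowest vehicle library in 7 genes, and vehicle 2 was the lowest in none. The summed CPM of the 10 genes was 428 to 516 in the vehicle libraries and 619 to 1347 in the OPE libraries.

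**Figure D3:**
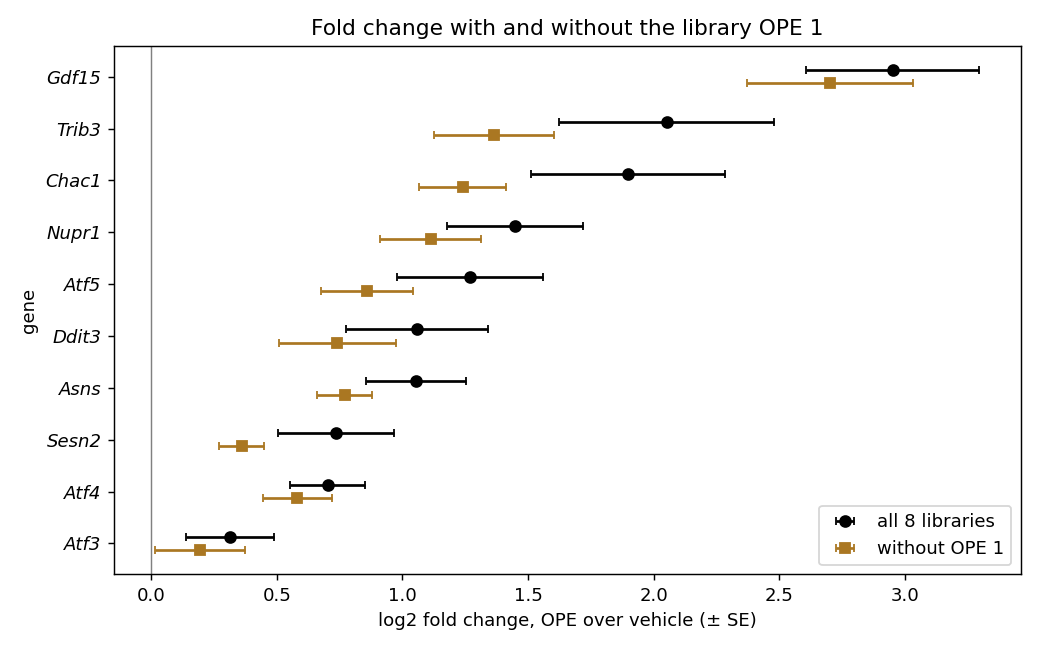
Log2 fold change, OPE over vehicle, of the 10 genes with its standard error, from all 8 libraries (black circles) and without OPE 1 (brown squares). The squares lie to the left of the circles in every gene and right of 0, with Gdf15 at 2.95 and 2.70 and Sesn2 at 0.74 and 0.36.

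Calls among the 10 genes are listed with the share of all genes called and are not read as support, since this contrast was known when the genes were chosen. The edgeR quasi-likelihood test called 2 of the 10 higher at an adjusted p of 0.05, against 0.0387% of all genes tested. Without OPE 1 it called 4, against 0.0958%. DESeq2 called 8 of the 10 higher (1.04% of its genes), limma-voom 2 (0.0838%), and edgeR with gene-length trends removed 3 (0.973%). With replicate number as an added term edgeR called 1 of the 10 higher, against 6 of the 15517 genes tested. At least 2-fold higher in the means were 7 of the 10 with OPE 1 (0.522% of genes) and 4 without it (0.567%). Without OPE 1 the other 3 OPE libraries still lay above all vehicle libraries in 8 genes (5.41% of genes). The authors' deposited table gives an adjusted p under 0.05 for 7 of the 10 genes, against 2.68% of the genes for which it has one. It gives no p-value for Chac1, 1 of 14 such genes. The log2 fold changes in the authors' deposited table are smaller, for example 1.47 for Gdf15 and 0.62 for Trib3.

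Libraries differed in ways the treatment labels do not name. Counted reads were between 17549560 and 22006738 in the vehicle libraries and between 14986793 and 21806141 in the OPE libraries, and OPE 1 was the deepest of its group. Of the 12 macrophage markers tested, 7 fell with OPE by edgeR and none rose (0.438% of all genes fell). Their summed CPM was 151.5 to 172 with vehicle and 30.5 to 75.5 with OPE, and lowest in OPE 1, where the stress genes were highest; none of the 12 was at 0. The summed CPM of 8 endothelial markers was 261 to 320 with vehicle and 126 to 238 with OPE, again lowest in OPE 1. By edgeR and limma-voom none of these 8 was called, and DESeq2 called 2 lower (2.07% of its genes). Their log2 fold changes were below 0 in 7, while Emcn was above (0.34 ± 0.16, edgeR adjusted p = 0.417). Fewer cells of a type and less RNA per cell cannot be told apart in these bulk samples. The part of these differences in the values of the 10 stress genes was not tested. The forelimb gene Tbx5 averaged 284 CPM with vehicle and 308 CPM with OPE, and the cartilage collagen gene Col2a1 6424 and 6160 CPM. Both genes of the labelled tissue were thus present. Of the hindlimb genes, Pitx1 averaged 3.32 and 3.52 CPM, while Tbx4 was higher at 27.5 and 24.6 CPM. The share of counts in genes of ribosomal proteins was 9.04% in OPE 3, against 4.54% to 5.82% elsewhere, and OPE 3 ranked second to OPE 1 in 9 of the 10 stress genes; the part of this difference was not tested either.

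Levels between genes were compared per length, with the deposited FPKM values (fragments scaled to gene length and library size). In the vehicle libraries the order was Atf4 (137 ± 9.92 FPKM, mean ± SD, n = 4), Asns (35.9 ± 2.51), Atf5 (35.3 ± 4.91), Ddit3 (20.3 ± 4.19) and Sesn2 (10.5 ± 0.453). Chac1 (7.11 ± 1.27), Trib3 (5.86 ± 1.24), Atf3 (4.52 ± 0.828), Nupr1 (2.34 ± 0.359) and Gdf15 (0.488 ± 0.131) followed. The values of the neighbours Asns and Atf5, Chac1 and Trib3, and Trib3 and Atf3 overlapped, while the other neighbours did not. Of the genes with a read in a vehicle library, 98.4% had a lower mean FPKM than Atf4, the most abundant of the 10. With OPE the mean FPKM of Gdf15 was 3.65 ± 1.47 and that of Atf4 214 ± 45.4. Nupr1 is set too low on this scale if its short transcript dominates, since the file gives it a length of 2449 bases while its principal transcript in GENCODE M21 has 829. Per length of that transcript it had 6.90 ± 1.06 FPKM with vehicle and 18.1 ± 7.89 FPKM with OPE.

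Relatives of the 10 genes were examined in the same libraries. Trib1 and Trib2, the other tribbles pseudokinase genes, gave log2 fold changes of -0.22 ± 0.10 and -0.27 ± 0.11 (edgeR adjusted p = 0.367 and 0.306). Per length they were the more abundant genes of the family in vehicle buds, with 9.10 ± 0.496 and 27.9 ± 0.997 FPKM against 5.86 ± 1.24 for Trib3 (mean ± SD, n = 4). Sesn1 and Sesn3, the other sestrin genes, gave 0.10 ± 0.08 and -0.03 ± 0.28 (edgeR adjusted p = 0.649 and 0.982). Sesn3 varied widely within both groups, from 26.6 to 56.0 CPM with vehicle and from 22.5 to 56.6 CPM with OPE. Chac2, the second glutathione-degrading enzyme gene of the family, gave 0.24 ± 0.26 (edgeR adjusted p = 0.769), and Nupr1l, the second Nupr gene, 0.54 ± 0.36 (edgeR adjusted p = 0.577). Jdp2, a bZIP relative of Atf3, had 71.1, 83.4, 71.8 and 72.4 CPM with vehicle and 168, 99.5, 103 and 85.1 CPM with OPE. Its groups did not overlap, and its log2 fold change was 0.61 ± 0.18 (edgeR adjusted p = 0.176). Inhba, which encodes the activin subunit inhibin beta A of the TGF-beta superfamily, had 6.55, 3.57, 3.47 and 4.97 CPM with vehicle and 3.09, 1.59, 0.624 and 3.40 CPM with OPE. All its OPE values lay below all its vehicle values, and its log2 fold change of -1.06 ± 0.41 (edgeR adjusted p = 0.284) was the largest in size among the relatives. Of the 17 relatives tested, which include growth factor genes of the TGF-beta superfamily, edgeR, DESeq2 and limma-voom called none, and 2 were higher and 4 lower at an unadjusted p under 0.05. Over all genes tested, 5.85% were higher and 7.31% lower at that threshold. These p-values do not show that the relatives were unaffected, and the difference between a gene and its relative was not tested.

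**Figure D4:**
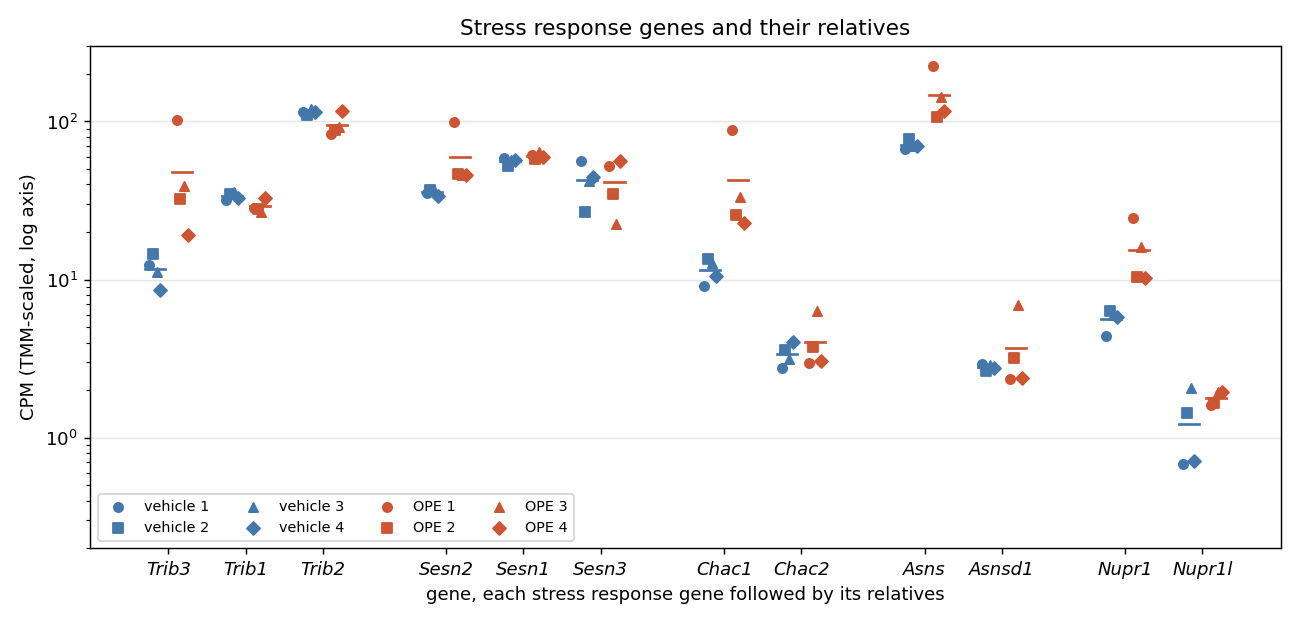
CPM (log axis, not scaled to gene length) of Trib3, Sesn2, Chac1, Asns and Nupr1, each followed by its relatives, 1 point per library, blue for vehicle and red for OPE, with bars at group means. Blue and red points are apart in the 5 stress response genes and overlap in Trib1, Trib2, Sesn1, Sesn3, Chac2, Asnsd1 and Nupr1l.

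The machinery upstream of ATF4 was expressed in all libraries. The mRNA of the 4 eIF2 kinases gave log2 fold changes of -0.05 ± 0.08 for Eif2ak1 (HRI, the haem-regulated kinase), -0.28 ± 0.14 for Eif2ak2 (PKR, activated by double-stranded RNA), 0.12 ± 0.12 for Eif2ak3 (PERK, of the endoplasmic reticulum) and -0.13 ± 0.11 for Eif2ak4 (GCN2, activated by amino acid shortage). Their edgeR adjusted p-values were 0.838, 0.407, 0.743 and 0.708. These kinases are controlled by activation of the protein, which RNA counts do not show. Of 16 genes of the kinases, eIF2, eIF2B and their regulators none was called by edgeR or limma-voom, 2 were higher at an unadjusted p under 0.05, and DESeq2 called 1 (1.04% of its genes were higher), Impact, an inhibitor of GCN2 (log2 fold change 0.45 ± 0.09, edgeR adjusted p = 0.0566). Eif2s2, the beta subunit of eIF2, gave 0.29 ± 0.11 (edgeR adjusted p = 0.302). The list had a median of 0.02. Over all genes tested, 5.85% were higher and 7.31% lower at an unadjusted p under 0.05. In the arm that dephosphorylates eIF2, edgeR, DESeq2 and limma-voom called none of 7 genes, and 1 was lower at an unadjusted p under 0.05. Ppp1r15a, which encodes the stress-induced phosphatase subunit GADD34 and is a target of ATF4 and CHOP, gave 0.15 ± 0.14 (edgeR adjusted p = 0.745). Dnajc3, an inhibitor of the kinase PERK that also belongs to the XBP1 and ATF6 list, gave -0.29 ± 0.09 (edgeR adjusted p = 0.18), with all OPE values below all vehicle values. The phosphatase genes Ppp1cc and Ppp1r15b gave -0.14 ± 0.09 and 0.16 ± 0.11 (edgeR adjusted p = 0.552 and 0.593).

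The bZIP partners and relatives of ATF4 had a median log2 fold change of 0.01 over 30 genes tested. None was called by edgeR, DESeq2 or limma-voom, with 5 higher and 1 lower at an unadjusted p under 0.05. Over all genes tested, 5.85% were higher and 7.31% lower at that threshold. Jdp2, Cebpb and Cebpg of this list are counted again among the further targets of ATF4 and CHOP. Jdp2 and Cebpg are also counted among the relatives of the 10 genes. Cebpb, a C/EBP partner of ATF4, had 22.4 and 19.1 CPM in OPE 1 and OPE 3. Its 9.99 and 6.39 CPM in OPE 2 and OPE 4 lay above and below the vehicle range of 7.14 to 8.69 CPM, and its log2 fold change was 0.87 ± 0.32 (edgeR adjusted p = 0.269). Jund, an AP-1 factor, gave 0.32 ± 0.12 (edgeR adjusted p = 0.27) with no overlap between the groups. Cebpg, another partner of ATF4, gave 0.38 ± 0.15 (edgeR adjusted p = 0.29).

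Beyond the 10 genes, a list of 40 further targets of ATF4 and CHOP had a median log2 fold change of 0.48, and 36 of its genes were above 0, against a median of 0.01 and 52.8% above 0 over all genes tested. By edgeR none passed at an adjusted p of 0.05, while 27 were higher and 1 lower at an unadjusted p under 0.05, against 5.85% higher and 7.31% lower over all genes tested. DESeq2 called 17 higher (1.04% of its genes) and limma-voom none. In 22 of the 40 all OPE values lay above all vehicle values (4.05% of genes tested), and in none below (5.44%). The genes with the smallest p were Mthfd2, a mitochondrial folate enzyme (1.00 ± 0.20, edgeR adjusted p = 0.0522), Phgdh, the first enzyme of serine synthesis (0.73 ± 0.15, adjusted p = 0.0552), and Pck2, mitochondrial PEP carboxykinase (0.86 ± 0.18, adjusted p = 0.0686). Mthfd2 had 58.4, 68.7, 68.9 and 70.0 CPM with vehicle and 200.3, 104, 127 and 101 CPM with OPE, so that it followed the order of libraries seen in the 10 genes. Without OPE 1 edgeR called 5 of the 40 higher (0.0958% of genes tested): Aldh1l2, Mthfd2, Slc1a4, Slc7a3 and Slc7a5. Aldh1l2 is a mitochondrial folate enzyme and the last 3 are amino acid transporters, named here because they passed. The median of the list without OPE 1 was 0.33. Relative to the vehicle mean, the list's median was 0.97 in OPE 1, 0.26 in OPE 2, 0.45 in OPE 3 and 0.29 in OPE 4, and between -0.03 and 0.06 in the vehicle libraries.

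Not all targets were higher. Ero1l, an oxidase of the endoplasmic reticulum that is also induced by hypoxia, gave -0.79 ± 0.26 (edgeR adjusted p = 0.22). Ddit4, an inhibitor of mTORC1 with the same double control, gave -0.49 ± 0.27 (edgeR adjusted p = 0.485). Both varied widely among the vehicle libraries, and their groups overlapped. Ero1l had 115, 76.4, 63.7 and 37.7 CPM in vehicle 1 to 4 and 37.1, 50.5, 40.7 and 41.2 CPM in OPE 1 to 4. For Ddit4 the values were 260, 206, 123 and 102 CPM with vehicle and 123, 155, 128 and 88.5 CPM with OPE. Of the 40 targets 30 had a promoter window. The core of the C/EBP-ATF response element occurred in windows of 9 of these 30, against 4.51% of all genes. The 9 were Fgf21, Gars, Herpud1, Jdp2, Pck2, Pycr1, Slc1a4, Slc7a11 and Vldlr.

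Other arms of the stress network were examined through further lists of genes. Over all genes tested, 52.8% were above 0, and 5.85% were higher and 7.31% lower at an unadjusted p under 0.05. The XBP1 and ATF6 arms of the unfolded protein response raise folding capacity in the endoplasmic reticulum. Of 22 of their genes, 19 were below 0 on the log2 scale and 3 above, with a median log2 fold change of -0.07. Relative to the vehicle mean, the list's median was -0.22 in OPE 1, -0.17 in OPE 2, 0.09 in OPE 3 and -0.11 in OPE 4. In the vehicle libraries it lay between -0.03 and 0.09. By edgeR and limma-voom none was called, 1 was higher and 4 lower at an unadjusted p under 0.05, and DESeq2 called 1 lower (2.07% of its genes), Derl3, a factor of protein degradation at the endoplasmic reticulum (-1.43 ± 0.40, edgeR adjusted p = 0.158). Hspa5, the main chaperone of that compartment, averaged 745 CPM with vehicle and 694 CPM with OPE (-0.10 ± 0.12, edgeR adjusted p = 0.796). Hyou1, another chaperone, gave -0.21 ± 0.08 (edgeR adjusted p = 0.251) with no overlap between the groups.

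Gdf15, Sesn2 and Atf3 can also be induced by p53. Of 24 p53 genes and targets none was called by edgeR, DESeq2 or limma-voom, 1 was lower at an unadjusted p under 0.05, and the median was 0.11. Log2 fold changes were above 0 in 17 and below 0 in 7, against 52.8% above 0 over all genes tested. They ran from -0.54 for Perp to 0.47 for Fas. Cdkn1a, which encodes the cell cycle inhibitor p21, gave -0.20 ± 0.09 (edgeR adjusted p = 0.402). Pidd1, a p53-induced death domain gene, gave -0.34 ± 0.14 (edgeR adjusted p = 0.315), Ccng1, which encodes cyclin G1, 0.24 ± 0.11 (edgeR adjusted p = 0.405), and Mdm2, the feedback inhibitor of p53, -0.01 ± 0.10 (edgeR adjusted p = 0.974). Of 18 NRF2 targets of the antioxidant response none was called by edgeR, DESeq2 or limma-voom, with 2 higher and 1 lower at an unadjusted p under 0.05 and a median of 0.03. Slc7a11, the cystine transporter shared with ATF4, gave 0.77 ± 0.28 (edgeR adjusted p = 0.254), and Hmox1, haem oxygenase 1, 0.31 ± 0.12 (edgeR adjusted p = 0.31). Osgin1, an oxidative stress-induced growth inhibitor, gave -0.68 ± 0.28 (edgeR adjusted p = 0.327), with all OPE values below all vehicle values.

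Of 21 genes of amino acid sensing at mTORC1, the pathway that Sesn2 restrains, edgeR and limma-voom called none, 1 was higher at an unadjusted p under 0.05, and the median was 0.03. That gene was Rragc, which encodes the GTPase RagC (0.38 ± 0.09, edgeR adjusted p = 0.101), and it was the 1 gene that DESeq2 called. Nprl2, of the GATOR1 complex, and Rragd, which encodes RagD, gave 0.25 ± 0.12 and 0.24 ± 0.13 (edgeR adjusted p = 0.407 and 0.474). The 16 genes of mitochondrial stress had a median of 0.17. By edgeR and limma-voom none passed, and 6 were higher and none lower at an unadjusted p under 0.05 (5.85% and 7.31% over all genes). DESeq2 called 3 higher (1.04% of its genes), namely Fgf21, Mthfd2 and Pycr1. These are also in the list of ATF4 and CHOP targets and are counted in both lists, so the lists are not independent. Fgf21 encodes a stress hormone that, like GDF15, is secreted. It had 2.03, 3.52, 2.72 and 2.62 CPM with vehicle and 15.5, 5.56, 7.14 and 4.40 CPM with OPE, with no overlap, and gave 1.59 ± 0.37 (edgeR adjusted p = 0.0877).

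GFRAL, the receptor of GDF15, is known from the hindbrain. Gfral had 0 reads in the 4 vehicle libraries and 4 reads in all 4 OPE libraries together, all from OPE 2, and was too low to be tested. Its co-receptor gene Ret averaged 1.15 CPM with vehicle and 1.32 CPM with OPE (0.19 ± 0.28, edgeR adjusted p = 0.847). The related receptor genes Gfra1 and Gfra4 gave -0.23 ± 0.14 and -0.12 ± 0.15, and the protease gene Pcsk7 -0.09 ± 0.10 (edgeR adjusted p = 0.521, 0.813 and 0.764). Furin, a protease that cleaves precursors of this superfamily, averaged 185 and 189 CPM (0.03 ± 0.10, edgeR adjusted p = 0.946). Over the 10 genes of this list that could be tested, edgeR, DESeq2 and limma-voom called none, and none had an unadjusted p under 0.05.

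**Figure D5:**
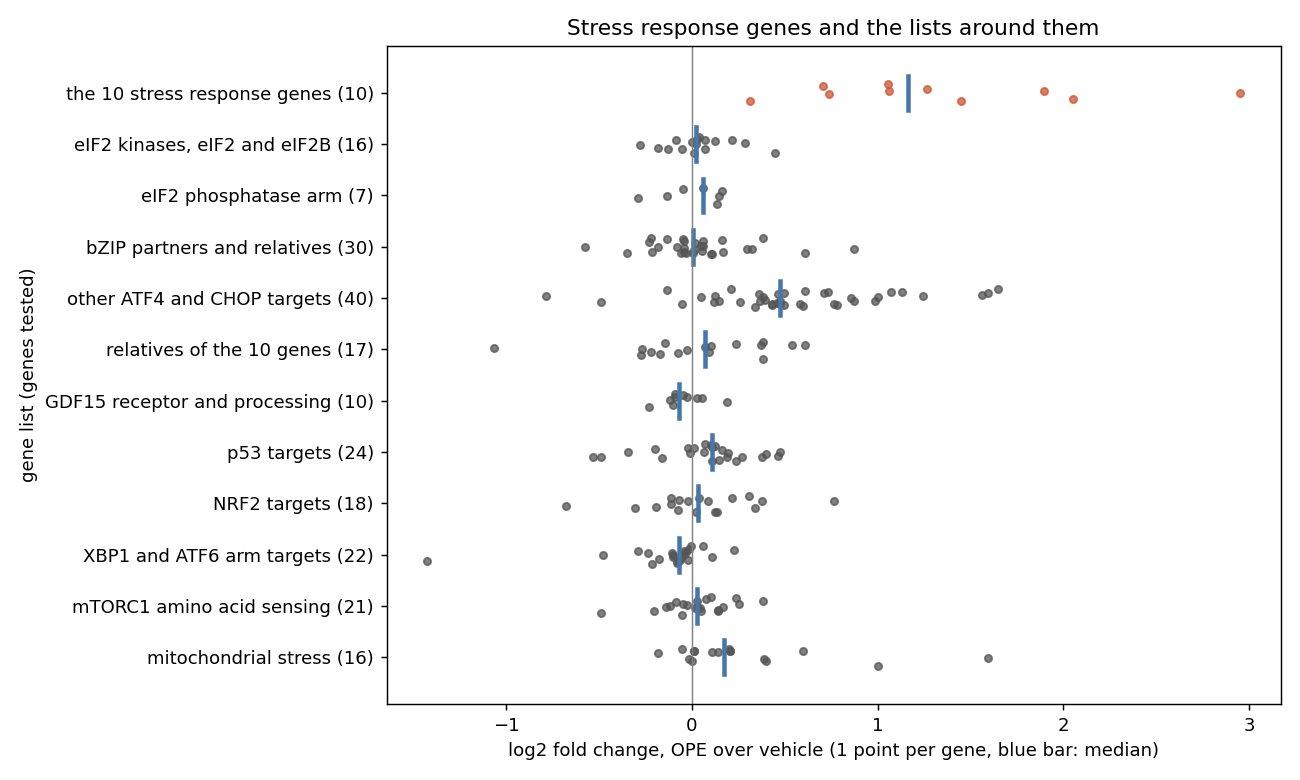
Log2 fold change, OPE over vehicle, of each gene tested (1 point per gene) in the 10 stress response genes (red) and in 11 lists around them (grey), with a blue bar at each median. The medians are 1.16 for the 10 genes, 0.48 for the further targets of ATF4 and CHOP, 0.17 for mitochondrial stress and between -0.07 and 0.11 for the other lists.

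Patterns over the 8 libraries were also compared without regard to function, by the root mean square difference between mean-centred log2 CPM profiles. The 5 named genes closest to the median profile of the 10 were Slc3a2, an amino acid transporter subunit (0.13 on the log2 scale), Mthfd2 (0.15), Mmp9, a gelatinase (0.18), Cth, an enzyme of cysteine synthesis (0.20), and Pck2 (0.20). The profile itself has a root mean square of 0.67. Slc3a2 had 109, 109, 86.4 and 88.8 CPM with vehicle and 361, 161, 208 and 129 CPM with OPE. Mmp9 had 25.5, 27.5, 31.8 and 28.5 CPM with vehicle and 95.7, 40.4, 52.1 and 37.8 CPM with OPE (log2 fold change 1.00 ± 0.26, edgeR adjusted p = 0.115). Both genes had all OPE libraries above all vehicle libraries and the order OPE 1, OPE 3, OPE 2, OPE 4. They were picked for closeness to the median profile of the 10 genes, so these features follow largely from that choice.

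Closest to Gdf15 were Mmp12, a macrophage elastase (0.62), Fgf21 (0.72), Slc7a3 (0.77), Soat2 (0.78) and Epgn (0.79), against a root mean square of 1.43 for the profile of Gdf15 itself. Mmp12 had 0.564, 0.714, 1.03 and 0.666 CPM with vehicle and 11.4, 2.12, 2.98 and 3.73 CPM with OPE, with a log2 fold change of 2.77 ± 0.52 (edgeR adjusted p = 0.0501). It was higher in every OPE library, as its choice by closeness to Gdf15 implies. The summed macrophage markers were lower in every OPE library. Among the 10 genes, Chac1 (0.64) and Trib3 (0.66) were closest to Gdf15, and Atf3 (1.25) was farthest. Atf5 was closest to the median profile of the 10, at 0.12, and Gdf15 farthest, at 0.84. The profiles were not scaled, so these differences depend on the size of a gene's change as well as on its order of libraries. Chac1 and Trib3 had the next highest log2 fold changes after Gdf15 (1.90 and 2.05), and Atf3 the lowest (0.31). Gdf15 had the order of OPE libraries seen in 8 of the 10 genes.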

How the data were processed

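Libraries were made from poly-A RNA with random priming, per the labels' protocols. Tools named in the submitters' processing notes are CASAVA 1.8, STAR 2.5, HTSeq 0.6.1, DESeq2 (version given as 2) and the build mm10, without roles; neither annotation nor strand setting is stated. The authors deposited 1 table of 21692 genes with raw counts, a signal column (counts divided by 1 size factor per library, 0.803 to 1.25), FPKM, log2 fold changes and p-values. The signal column was checked on the values and not used further.

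The test on the raw counts was that of edgeR 4.0.16, run in R 4.3.3 (TMM scaling, filterByExpr, robust quasi-likelihood fit, group as the only term, two-sided, Benjamini-Hochberg adjustment over 15517 genes, threshold 0.05). CPM uses TMM-scaled totals, and log2 CPM a prior count of 2. Limma 3.58.1 and DESeq2 1.42.0 served as alternatives. Replicate libraries differed by more than sampling noise in every pair (lowest chi-square over its degrees of freedom, 4.80). On simulated counts of 15333 genes in 4 against 4 libraries, 28.0% of genes changed 1.5-fold, 60.0% of those changed 2-fold and all changed 4-fold were called, with 1 false call among 119. The simulation gave both groups the same dispersion per gene and no shift shared by genes within a library. In the data Trib3 had a coefficient of variation of 76.2% within OPE and 21.2% within vehicle. The simulated shares thus may not hold for the stress genes.

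The members, the lists, the tests and the rule for named genes were chosen with earlier results of these data known. The rule took the 10 members; from each pathway list (not the marker lists) the genes past the threshold and the 3 of smallest p, members left out; relatives and eIF2 kinases, which may be named whatever their p; and the 5 closest patterns to Gdf15 and to the members' median, predicted genes left out. Other genes named are examples chosen after their values were seen. List symbols were matched through Ensembl IDs where the file uses an older symbol; 1 list gene had no match and was not analysed here. Alternatives were other scalings, filters, tools, gene-length offsets (a spline with 5 degrees of freedom), a replicate block and left-out libraries.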

Additional observations from a re-analysis of the deposited data

Results flagged for a closer look

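In the OPE group 2 of the 10 genes had 1 library far from the other 3. Sesn2 stood at 99.3 CPM in OPE 1, while OPE 2 to 4 lay between 45.8 and 46.7 CPM; the gap to the nearest library was 0.984 of the group's range, above Dixon's 95% critical value for 4 libraries. Chac1 stood at 88.2 CPM in OPE 1, while OPE 2 to 4 lay between 22.7 and 33.2 CPM, with a gap of 0.839 of the range. Of 20 groups examined these 2 passed, and chance flags about 1 in 20. No vehicle group passed. OPE 1 was also the library with the lowest summed macrophage and endothelial markers, and the part of that in the 2 values was not tested.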

How the results depend on the processing

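The log2 fold changes of all 10 genes stayed above 0 in all 21 settings. The median over the 10 was 1.16, ranged from 0.814 to 1.38 when 1 library was left out, and was 0.66 without OPE 1 and OPE 3. Of 200 values for the single members 8 moved by more than the spread between replicates, and none changed sign. Of these, 7 belong to the fit without OPE 1 and OPE 3, and the other is Chac1 without OPE 1. That spread includes OPE 1, which widens it. For Sesn2 the SD of log2 CPM was 0.55 within OPE and 0.064 within vehicle. Without OPE 1 Sesn2 went from 0.74 to 0.36 and Trib3 from 2.05 to 1.37, and both count as not moved. The 74 calls over all genes became 131 with library totals, 136 with no filter on low counts, 504 with DESeq2, 112 with the other quasi-likelihood method, 322 with gene-length offsets, 261 with the replicate block and gene-length offsets, and 7 to 308 when 1 library was left out; the cause was not tested. Calls that were higher made up 8.11% at first and 46.9% with gene-length offsets. Of 1139 values for the other named genes 31 newly passed the threshold and none reversed. The replicate numbers in the labels are shared, and the same-numbered pairs correlated at 0.309, 0.0818, 0.0126 and 0.0918. Differently numbered pairs ran from -0.343 to 0.361. These correlations do not settle whether same-numbered libraries share more than a number. With the replicate block 62 genes were called and the members' median was 1.06. Low counts limit Gdf15 in the vehicle libraries.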
